A study of Homo sapiens with 4 samples.

Results

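The genes described here build ribosomes in the nucleolus. They were chosen by name as nucleolar ribosome assembly factors, RNA polymerase I subunits and factors, and MYC, 45 genes in all, and their rows were read from an RPKM table of 12033 genes (reads per kilobase of transcript, scaled to library size). The table used here held 44 of the 45, BOP1 was not analysed here, and 41 of the 44 averaged 2 RPKM or more across the libraries, the level at which 7596 genes were compared. The remaining 3 were UTP15, at 1.0 to 1.2 RPKM, PPAN, at 1.0 to 1.3, and TWISTNB, at 1.4 to 2.1, and no ratio is drawn from them.

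The RNA came from BJ-indRASG12V cells, human BJ fibroblasts immortalized with hTERT in which an inducible RAS oncogene is switched on by 4-OHT, and each library had been treated for 14 days, a model of oncogene-induced senescence. Cells were transduced with CRISPR guides, and there was 1 library per guide. NT carried a non-targeting guide, sgRNA.69 and sgRNA.71 were aimed at the same enhancer (Enh.AP1.OIS1), and sgRNA-FOXF1 was aimed at the gene FOXF1. All 4 libraries carried the induced RAS, and no library without it was analysed here. The enhancer guides are the only pair of libraries with a common target, so the spread between them is the only error the design gives, and it includes any difference between the guides themselves. All comparisons to NT share that single library.

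A ribosome starts with transcription of the ribosomal DNA by RNA polymerase I, a large enzyme that RRN3 brings to promoters bound by UBTF. The long precursor RNA is modified at sites chosen by small nucleolar RNAs (snoRNAs), which sit in protein complexes of 2 kinds, box C/D and box H/ACA, and it is then cleaved and folded into the small and large subunits by many assembly factors. MYC is a transcription factor known to drive many of these genes, and in senescent cells ribosome assembly is often slowed while cells remain large.

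The libraries were checked on other genes first. FOXF1 was at 29.6 RPKM in NT, 11.1 in sgRNA.69, 7.8 in sgRNA.71 and 25.0 in sgRNA-FOXF1. A guide that alters the coding sequence need not lower the RNA, so the last value does not test the guide. HRAS was at 829.4, 446.4, 427.4 and 707.6 RPKM in the same order. All 12 fibroblast markers looked for were in the table, 1 of them at the floor throughout, and 0 of 5 epithelial, 0 of 4 endothelial and 0 of 4 leukocyte markers were listed. The summed level of 6 proliferation genes was 76.8 RPKM in NT and 83.8 to 99.0 in the targeted libraries. CCNB1 was at 17.9 RPKM in NT and 25.7, 36.7 and 27.6 in sgRNA.69, sgRNA.71 and sgRNA-FOXF1. MCM2, at 6.4, 10.6, 12.8 and 15.2, and CDK1, at 1.4, 2.1, 2.4 and 3.5, were also lowest in NT. MKI67, at 2.8, 1.3, 1.7 and 1.6, and PCNA, at 43.2, 38.2, 40.5 and 38.6, were highest in NT. TOP2A was at 5.1, 5.9, 4.9 and 4.5. The 13 mitochondrial-genome transcripts had median log2 ratios to NT of -1.02, -1.54 and -0.77 in sgRNA.69, sgRNA.71 and sgRNA-FOXF1. The part of these shifts in the results below was not tested. In bulk RNA, fewer cells of a type and less RNA per cell cannot be told apart.

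In NT the 41 compared genes had a median level of 13.9 RPKM, against 8.3 for all compared genes. The highest was NOP10, a small box H/ACA protein, at 292.3 RPKM, followed by NPM1 at 130.6 and NHP2 at 71.7. The lowest was WDR3 at 2.8. Medians in the targeted libraries were 12.6, 14.5 and 13.0 RPKM for the members and 8.2 in each for all genes. In the plot of levels most genes keep their place, and only a few rows spread visibly.

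**Figure D1:**
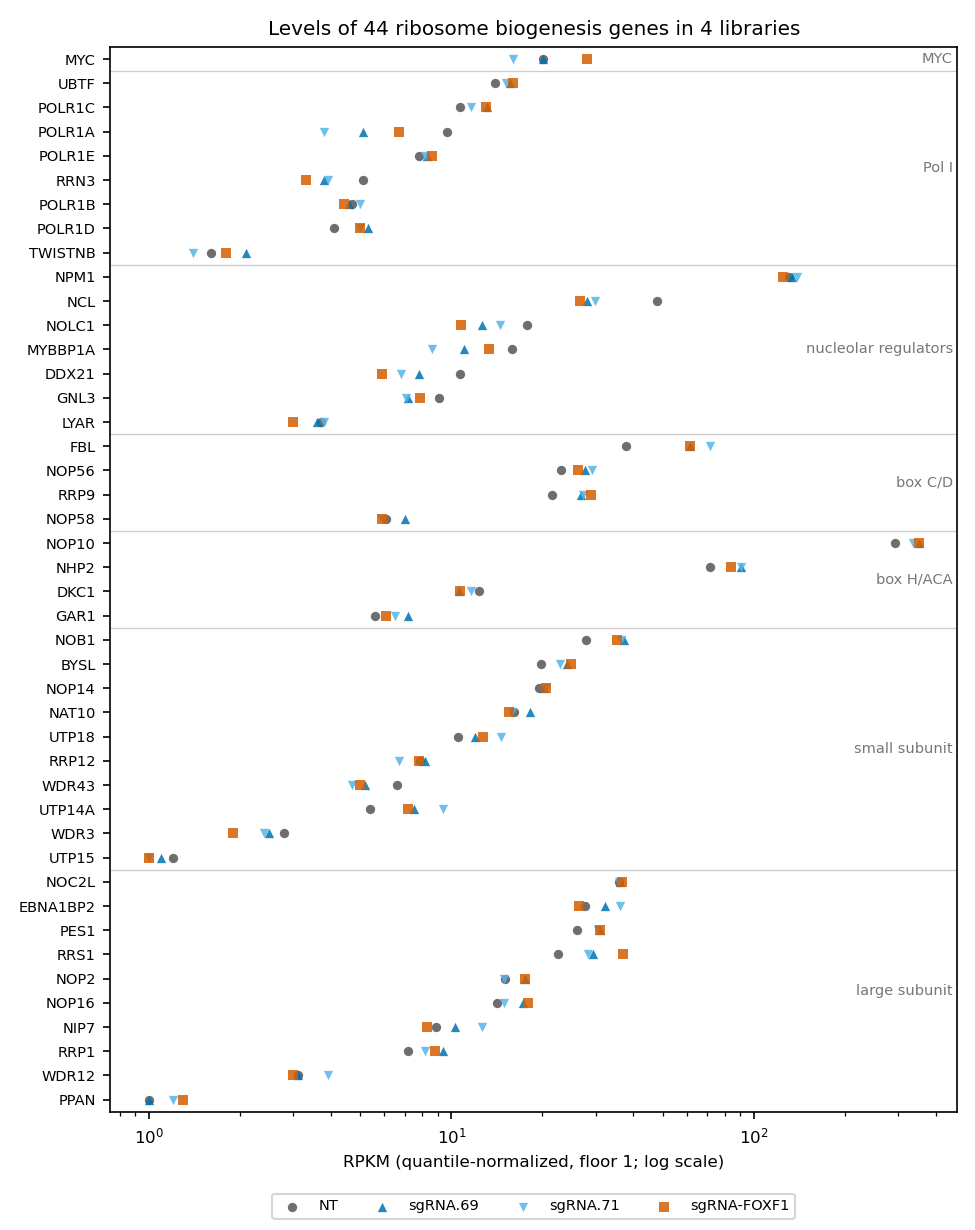
Level of each of the 44 genes in the 4 libraries (x axis, RPKM on a log scale; 1 row per gene, ordered by role and then by the NT level; 1 symbol per library, with no error since each guide has 1 library). Most rows are tight, while POLR1A spans 3.8 to 9.7 RPKM, NCL 26.7 to 47.7 and FBL 37.7 to 71.8.

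Most of the 41 genes stayed within 1.5-fold of their control level. A total of 13 were within 1.2-fold of NT in each targeted library, and 32 were below a 1.5-fold difference (0.585 on the log2 scale) in each. The share of all compared genes that met these rules in each targeted library was not computed, so these 2 counts have no background beside them. The 9 that passed it somewhere were POLR1A, NCL, MYBBP1A, NOLC1, DDX21, RRN3, FBL, UTP14A and RRS1. At 1.5-fold, 1 member was higher and 2 were lower with sgRNA.69, where 8.18% of all compared genes were higher and 9.93% lower, 18.1% in all, beside 7.32% of the members. With sgRNA.71, 2 were higher and 4 lower, 14.6% of the members, while 14% of all genes were higher and 14.7% lower, 28.8% in all. With sgRNA-FOXF1, 2 were higher and 4 lower, again 14.6%, while 11.6% of all genes were higher and 13.2% lower, 24.9% in all. On the mean of the enhancer guides, 2 members were higher (FBL and UTP14A) and 3 lower (POLR1A, NCL and MYBBP1A), where 10.1% and 11.7% of all genes were, 21.8% in all. With sgRNA.69 alone MYBBP1A, at -0.53, and UTP14A, at 0.47, were short of 1.5-fold. These shares lie below the background in each library, so the list as a whole holds no excess of differing genes. The median log2 ratio of the members was 0.18, 0.09 and 0.08 in sgRNA.69, sgRNA.71 and sgRNA-FOXF1, beside 0.07, 0.08 and 0.05 for all compared genes, and the SD of the log2 ratios was 0.35, 0.43 and 0.39 beside 0.48, 0.63 and 0.58.

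A fit of the 4 libraries with limma, which takes its spread from the pair of enhancer guides with 1 residual degree of freedom, called 0 of the 41 members and 0 of the 7596 genes at an adjusted p under 0.05 for the enhancer guides against NT. At an unadjusted p under 0.05 it held 7 members (17.1%) beside 24.3% of all genes. Those were NCL, FBL, POLR1A, NOB1, NHP2, RRN3 and DDX21, each with an adjusted p of 0.205. The genes below are therefore described by their values, and a difference named as higher or lower is one of these libraries.

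**Figure D2:**
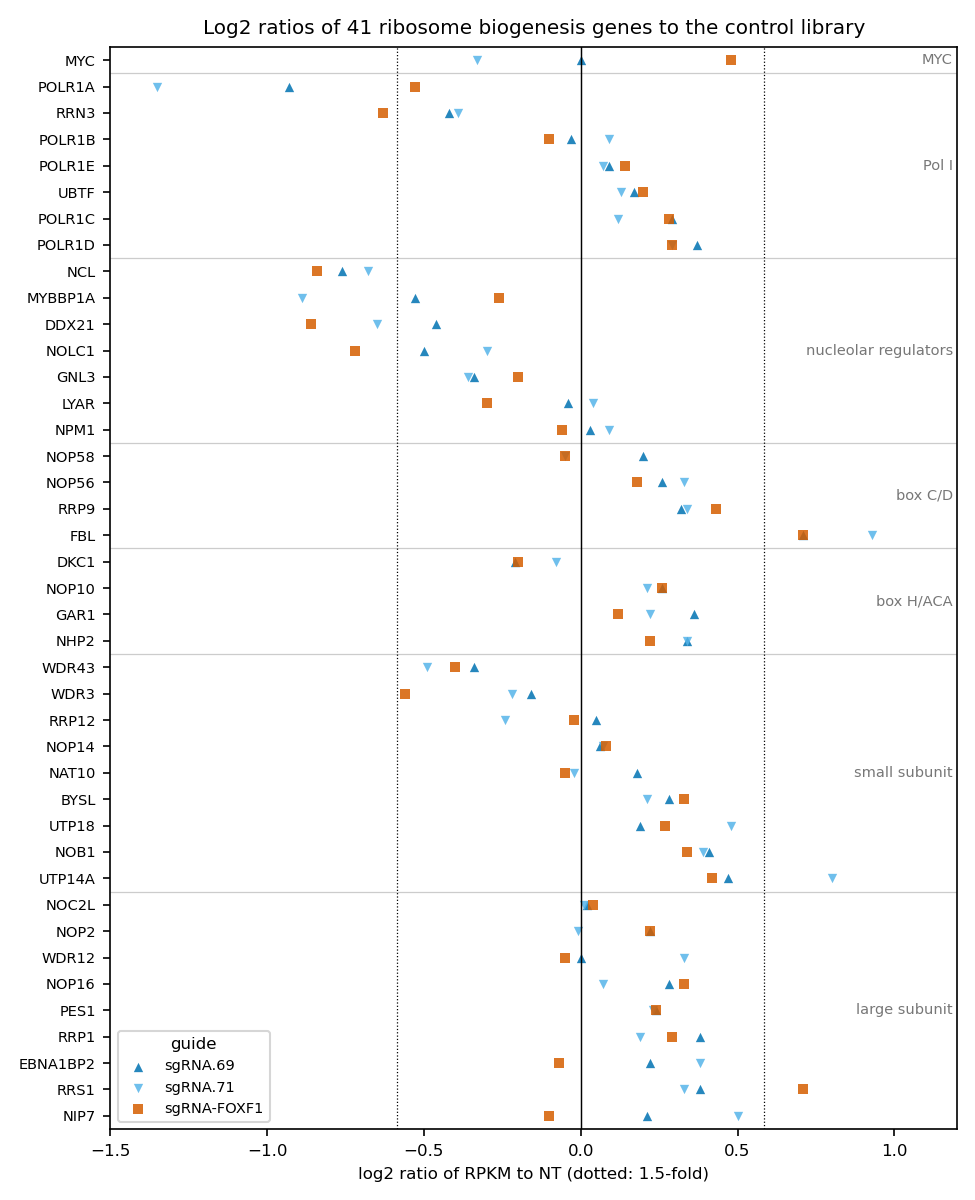
Log2 ratio of RPKM to NT for the 41 compared genes (x axis) in the 3 targeted libraries, 1 row per gene grouped by role, with dotted lines at 1.5-fold and no error bars since each guide has 1 library. The symbols to the left of the lower line are mostly nucleolar regulators and POLR1A, and FBL lies to the right of the upper line with all 3 guides.

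Among the RNA polymerase I genes, the largest subunit and RRN3 passed 1.5-fold in some library, both lower than NT. POLR1A encodes the largest, catalytic subunit (chromosome 2, 86247339 to 86333278 on the minus strand of GRCh37, 34 exons and 12480 bases in the canonical transcript). It was at 9.7 RPKM in NT, 5.1 in sgRNA.69, 3.8 in sgRNA.71 and 6.7 in sgRNA-FOXF1. NT was the highest library, and the log2 ratios of -0.93, -1.35 and -0.53 correspond to levels 1.90-fold, 2.55-fold and 1.45-fold lower. The limma estimate for the enhancer guides was -1.14 (SE 0.26, adjusted p = 0.205).

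POLR1B, the second largest subunit, which forms the catalytic centre together with POLR1A, did not follow it. POLR1B was at 4.7, 4.6, 5.0 and 4.4 RPKM in NT, sgRNA.69, sgRNA.71 and sgRNA-FOXF1. The ratio of POLR1A to POLR1B levels within a library, both in RPKM and thus per length, was 2.06 in NT, 1.11 in sgRNA.69, 0.76 in sgRNA.71 and 1.52 in sgRNA-FOXF1. The subunits were thus about level with each other in the enhancer libraries, while POLR1A exceeded POLR1B in NT.

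POLR1C and POLR1D, which RNA polymerases I and III share, were slightly higher than NT in all 3 targeted libraries. POLR1C was at 10.7, 13.1, 11.6 and 13.0 RPKM, and POLR1D at 4.1, 5.3, 5.0 and 5.0. POLR1E, a subunit specific to polymerase I, was at 7.8, 8.3, 8.2 and 8.6 RPKM. None of these was past 1.5-fold, and their log2 ratios ran from 0.07 to 0.37.

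The initiation factors differed from each other. UBTF, which binds ribosomal DNA promoters, was at 13.9, 15.6, 15.2 and 16.0 RPKM, within 1.2-fold of NT in each library. RRN3, which links the polymerase to the promoter factors, was at 5.1 RPKM in NT and 3.8, 3.9 and 3.3 in the targeted libraries, with log2 ratios of -0.42, -0.39 and -0.63, the last just past 1.5-fold. RRN3 has near-identical pseudogene copies, and how reads were divided among them is not known here. Over the 7 compared polymerase I genes the median log2 ratio was 0.09, 0.09 and 0.14.

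Of the 6 genes past 1.5-fold lower in some library, 4 were nucleolar proteins that act on ribosomal DNA transcription, on the nucleolus itself or as chaperones and helicases. This grouping by role was made with the values already known, so its medians are a description. The 7 genes NCL, NPM1, NOLC1, MYBBP1A, DDX21, LYAR and GNL3 had median log2 ratios of -0.46, -0.36 and -0.30, the only role of several genes with medians below 0 in the uncorrected values. In sgRNA-FOXF1 all 7 were below NT, in sgRNA.69 6 were, and in sgRNA.71 5 were.

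NCL encodes nucleolin, an abundant nucleolar protein that binds the precursor RNA and ribosomal DNA chromatin (chromosome 2, 232318242 to 232348352 on the minus strand of GRCh37, 14 exons). NCL was at 47.7 RPKM in NT, 28.1 in sgRNA.69, 29.8 in sgRNA.71 and 26.7 in sgRNA-FOXF1. It was the only member past 1.5-fold lower with all 3 guides, at log2 ratios of -0.76, -0.68 and -0.84. The share of all compared genes past 1.5-fold lower with all 3 guides was not computed, and the 3 ratios share the NT library. For NCL the enhancer guides lay closer to each other than either lay to NT. The limma estimate was -0.72 (SE 0.11, unadjusted p = 0.0125, adjusted p = 0.205).

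NPM1, or nucleophosmin, the other abundant nucleolar chaperone, was at 130.6, 133.2, 139.0 and 125.3 RPKM. Its level thus differed from NT by less than 1.2-fold throughout, although processed pseudogenes of NPM1 could take some of its reads. The ratio of NPM1 to NCL levels, before any correction for length, was 2.74 in NT and 4.74, 4.66 and 4.69 in the targeted libraries. These 3 agreed closely among themselves and stood apart from the single control.

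DDX21, an RNA helicase that associates with polymerase I and with snoRNAs, was at 10.7 RPKM in NT and 7.8, 6.8 and 5.9 in sgRNA.69, sgRNA.71 and sgRNA-FOXF1. NOLC1, a chaperone of snoRNA-protein complexes, was at 17.8, 12.6, 14.5 and 10.8 RPKM. For both, sgRNA-FOXF1 was the lowest library, with log2 ratios of -0.86 and -0.72. MYBBP1A, a repressor of polymerase I transcription and partner of other nucleolar regulators, showed another order, at 15.9, 11.0, 8.6 and 13.3 RPKM, with sgRNA.71 the lowest (log2 ratio -0.89) and sgRNA-FOXF1 the nearest to NT (-0.26).

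GNL3, the nucleolar GTP-binding protein nucleostemin, was at 9.1 RPKM in NT and 7.2, 7.1 and 7.9 in the targeted libraries. LYAR was at 3.7, 3.6, 3.8 and 3.0 RPKM. Neither passed 1.5-fold, and the LYAR level in the enhancer libraries straddled that in NT.

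Of the 4 proteins of box C/D complexes, which carry out 2′-O-methylation, only FBL passed 1.5-fold, and it was higher. FBL encodes fibrillarin, the methyltransferase itself (chromosome 19, 40325098 to 40337019 on the minus strand of GRCh37, 9 exons and 1125 bases). It was at 37.7 RPKM in NT, 61.6 in sgRNA.69, 71.8 in sgRNA.71 and 61.6 in sgRNA-FOXF1. FBL was the only member past 1.5-fold higher with all 3 guides, at 1.63-fold, 1.90-fold and 1.63-fold (log2 ratios 0.71, 0.93 and 0.71). Here too the share of all compared genes that met this rule was not computed. The limma estimate for the enhancer guides was 0.82 (SE 0.15, unadjusted p = 0.0222, adjusted p = 0.205).

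Its partners in the same particle were nearer to NT. NOP56 was at 23.1, 27.6, 29.1 and 26.2 RPKM, and NOP58 at 6.1, 7.0, 5.9 and 5.9. RRP9, which binds the U3 snoRNA, was at 21.5, 26.8, 27.3 and 29.0. Before any correction for length, the ratio of FBL to NOP58 levels went from 6.18 in NT to 8.80, 12.2 and 10.4. That of FBL to NOP56 went from 1.63 to 2.23, 2.47 and 2.35. In these uncorrected values the RNAs for proteins of the same particle were in unequal proportion between NT and the targeted libraries. Corrected for length and GC content, the log2 ratios to NT were 0.42, 0.64 and 0.30 for FBL and 0.11, -0.27 and 0.06 for NOP58.

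In the box H/ACA complexes, which convert uridine to pseudouridine, the pseudouridine synthase DKC1 and its small partners also differed in direction before any correction for length, all within 1.5-fold. DKC1 was at 12.3 RPKM in NT and 10.6, 11.6 and 10.7 in the targeted libraries. NOP10 was at 292.3, 350.2, 337.0 and 350.2, NHP2 at 71.7, 90.8, 90.8 and 83.8, and GAR1 at 5.6, 7.2, 6.5 and 6.1. NOP10 exceeded DKC1 by 23.8-fold in NT and by 29.1 to 33.0-fold in the targeted libraries, and it exceeded GAR1 by 48.6 to 57.4-fold in the 4 libraries.

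Of the 9 compared small-subunit factors, 1 passed 1.5-fold. UTP14A, a component of the early precursor particle, was at 5.4 RPKM in NT, 7.5 in sgRNA.69, 9.4 in sgRNA.71 and 7.2 in sgRNA-FOXF1. NT was the lowest library, and the log2 ratio reached 0.80 in sgRNA.71 beside 0.47 and 0.42 in the others. NOB1, the nuclease that makes the final 18S cut, was at 27.9, 37.1, 36.5 and 35.2 RPKM, with log2 ratios of 0.34 to 0.41 that were nearly equal across guides. WDR43 and WDR3, parts of the same early particle, lay on the other side, at 6.6, 5.2, 4.7 and 5.0 RPKM and at 2.8, 2.5, 2.4 and 1.9 RPKM. The others, NOP14, RRP12, BYSL, UTP18 and NAT10, had log2 ratios between -0.24 and 0.48, and the medians over the 9 were 0.18, 0.07 and 0.08.

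Of the 9 compared large-subunit factors, RRS1, which helps to bring in the 5S ribonucleoprotein, passed 1.5-fold with sgRNA-FOXF1 only. RRS1 was at 22.5 RPKM in NT, 29.3 in sgRNA.69, 28.3 in sgRNA.71 and 36.8 in sgRNA-FOXF1, with log2 ratios of 0.38, 0.33 and 0.71. PES1, a scaffold of large-subunit assembly that works in a complex with WDR12, was at 26.1, 30.9, 30.6 and 30.9 RPKM, and WDR12 was at 3.1, 3.1, 3.9 and 3.0. NOC2L was the steadiest member, at 35.7, 36.2, 35.9 and 36.6. Medians over the 9 were 0.22, 0.23 and 0.22, and the others (NOP2, NOP16, RRP1, NIP7 and EBNA1BP2) had log2 ratios between -0.10 and 0.50.

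MYC was at 20.1 RPKM in NT, 20.1 in sgRNA.69, 16.0 in sgRNA.71 and 28.1 in sgRNA-FOXF1. NT and sgRNA.69 were equal to the decimal given, sgRNA.71 was the lowest and sgRNA-FOXF1 the highest. The log2 ratios of 0.00, -0.33 and 0.48 did not reach 1.5-fold before any correction for length, and the limma estimate for the enhancer guides against NT was -0.16 (SE 0.21, adjusted p = 0.62). With 4 libraries no correlation of the other members with MYC was computed. Exons of MYC overlap CASC11 on the opposite strand and those of MYBBP1A overlap SPNS2. Many other members, UTP14A among them, also overlap a gene on the opposite strand, and a few, such as RRS1, overlap a gene on the same strand. Whether the counting kept the strands apart is uncertain.

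The motif to which MYC binds with its partner MAX, the E-box CACGTG, was looked for in the promoters. RefSeq promoter windows (GRCh38.p14, from 250 bases before to 50 after a start) were at hand for 38 of the 45 genes, and 13 of them (34.2%) held the motif, a palindrome that reads the same on both strands. Of all 27305 windows 7.43% held it, and of those of 5908 compared genes 10.7%. A GC box, GGGCGG on either strand, was in 68.4% of member windows and 73.5% of those of compared genes, and an ETS motif, CCGGAAG on either strand, was in 34.2% and 21.3%. Of the 7 members with a window that passed 1.5-fold in some library, 3 held an E-box, and these are printed below beside UTP18 and NOP10, which held it at 2 places. Each is a 30-base stretch in the direction of the gene, placed on GRCh37 by an exact match, with the E-box in capitals.
FBL, chr19:40336996-40337025, minus strand: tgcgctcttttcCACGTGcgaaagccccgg
MYBBP1A, chr17:4458635-4458664, minus strand: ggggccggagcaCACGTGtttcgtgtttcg
UTP14A, chrX:129039890-129039919, plus strand: accttgggcCACGTGgaaaccaggggccag
UTP18, chr17:49337806-49337835, plus strand: gggagtgctggtCACGTGgcaagaggctgc
UTP18, chr17:49337899-49337928, plus strand: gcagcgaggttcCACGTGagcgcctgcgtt
NOP10, chr15:34635490-34635519, minus strand: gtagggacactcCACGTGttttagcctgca
NOP10, chr15:34635331-34635360, minus strand: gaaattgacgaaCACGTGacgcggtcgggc

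The E-box of FBL lies 6 to 11 bases after the listed start and that of MYBBP1A 27 to 32 bases after it, while that of UTP14A lies before it, at -241 to -236. FBL and UTP14A were higher than NT and MYBBP1A was lower. The 13 compared members with an E-box had median log2 ratios of 0.22, 0.21 and 0.24, and the 22 with a window and no E-box 0.02, 0.09 and -0.05. Corrected for length, the medians were 0.14, 0.13 and 0.15 with an E-box and 0.04, -0.08 and -0.0 without. POLR1A, NCL, DDX21 and RRN3 are among the 22 without, and no match says only that these letters are not in this window. A match is a sequence feature and was not tested for binding.

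Several of the genes are themselves hosts of snoRNAs, which are cut from introns. Of the 41 compared members 7 (17.1%) had an annotated snoRNA or related small Cajal body RNA inside the gene on the same strand, against 3.09% of compared genes with a position. NCL holds SNORA75, SNORD20 and SNORD82, and the others were DKC1, GNL3, NOP56, NOP58, WDR43 and POLR1C. The hosts had median log2 ratios of -0.21, -0.08 and -0.20 and the 34 others 0.18, 0.11 and 0.13. Among the hosts NCL was lower with all guides, while NOP56 had log2 ratios of 0.26, 0.33 and 0.18 and POLR1C of 0.29, 0.12 and 0.28. Poly(A) RNA was sequenced, so the values are for the host mRNAs and not for the snoRNAs.

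Log2 ratios of the members went with transcript length. Across the 41 genes, Spearman's rho between the log2 ratio to NT and the length of the canonical transcript was -0.68, -0.57 and -0.54 in sgRNA.69, sgRNA.71 and sgRNA-FOXF1. Across 7566 compared genes with a length it was -0.50, -0.44 and -0.45, so the relation was not limited to these genes. The 3 values share the NT library and the genes share each library, and they are descriptions. The 15 members over 3500 bases had median log2 ratios of -0.16, -0.30 and -0.26, beside -0.18, -0.19 and -0.22 for all genes of that length, and the 26 shorter members 0.26, 0.21 and 0.23, beside 0.20, 0.22 and 0.20. Every member past 1.5-fold lower was over 3500 bases and every one past 1.5-fold higher was shorter.

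A correction for length by a curve fitted over all compared genes made most of these differences smaller. POLR1A went to -0.27, -0.52 and 0.18, thus to no 1.5-fold difference in any library and to the other side of 0 in sgRNA-FOXF1. NCL was at -0.61, -0.50 and -0.69 and no longer past 1.5-fold with sgRNA.71. With GC content added, a choice made after seeing the data, NCL was at -0.64, -0.62 and -0.61, past 1.5-fold lower with each guide. Corrected for length alone, FBL was at 0.45, 0.63 and 0.43, past 1.5-fold with sgRNA.71 only. NPM1 went to -0.19, -0.17 and -0.30, nearer to NCL than before correction. MYC in sgRNA-FOXF1 went the other way, from 0.48 to 0.61 and past 1.5-fold, also with GC content in the correction (0.61). DDX21 was at -0.24, -0.41 and -0.62, NOLC1 at -0.37, -0.14 and -0.60, and MYBBP1A at -0.32, -0.65 and -0.03. UTP14A was hardly altered, at 0.46, 0.79 and 0.36.

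The 7 nucleolar regulators had length-corrected medians of -0.32, -0.41 and -0.51, and 0 of the 7 was above 0 in any library. The ratios of sgRNA-FOXF1 to NT also went with GC content (Spearman's rho 0.57 in the members and 0.33 in all compared genes). With GC content added, the sgRNA-FOXF1 values of the 7 ran from -0.61 for NCL to -0.06 for NPM1. Only NCL was then past 1.5-fold lower, against 3 of the 7 with length alone. The 9 small-subunit factors had length-corrected medians of 0.25, 0.21 and 0.15 and the 9 large-subunit factors 0.20, 0.16 and 0.16. The corrected medians were -0.03, -0.10 and -0.13 for the box H/ACA proteins, 0.04, -0.07 and 0.03 for the polymerase I genes and 0.15, 0.17 and 0.13 for box C/D. DKC1 was at -0.23, -0.10 and -0.26 after correction, NOP10 at -0.08, -0.13 and -0.03, NHP2 at 0.02, -0.01 and -0.09, and GAR1 at 0.08, -0.10 and -0.17. The split in direction between DKC1 and its partners was thus gone with sgRNA.71 and sgRNA-FOXF1. The longest transcripts next to POLR1A moved up under the correction: WDR12 (8068 bases) went to 0.47, 0.88 and 0.47, POLR1B (7527 bases) to 0.40, 0.60 and 0.39, and WDR3 (10004 bases) to 0.40, 0.47 and 0.06. At these corrected values the number past 1.5-fold higher was 0, 4 and 1 and the number lower 1, 1 and 3, beside 14.1%, 25.0% and 20.4% of all genes in either direction. The correction takes the length of 1 transcript per gene from a later annotation than the one used to make the table, and the length relation was not traced to a cause.

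The FOXF1 guide was compared with the mean of the enhancer guides, which leaves the NT library out. At 1.5-fold, 2 members were higher with sgRNA-FOXF1 and 0 were lower, where 5.86% of all genes were higher and 3.54% lower, 9.4% in all. MYC was higher by 0.65 on the log2 scale (1.57-fold, SE 0.21, limma adjusted p = 0.45) and POLR1A by 0.61 (1.52-fold, SE 0.26, adjusted p = 0.454). Against sgRNA.69 alone they were 0.48 and 0.39 higher, short of 1.5-fold, and against sgRNA.71 alone 0.81 and 0.82. limma called 0 of 41 members and 0 of 7596 genes at an adjusted p under 0.05, and 0 members and 9.65% of genes had an unadjusted p under 0.05. The smallest unadjusted p among the members was 0.0525, for RRS1, which was 0.35 higher, and the lowest log2 ratio was that of NIP7, at -0.46.

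**Figure D3:**
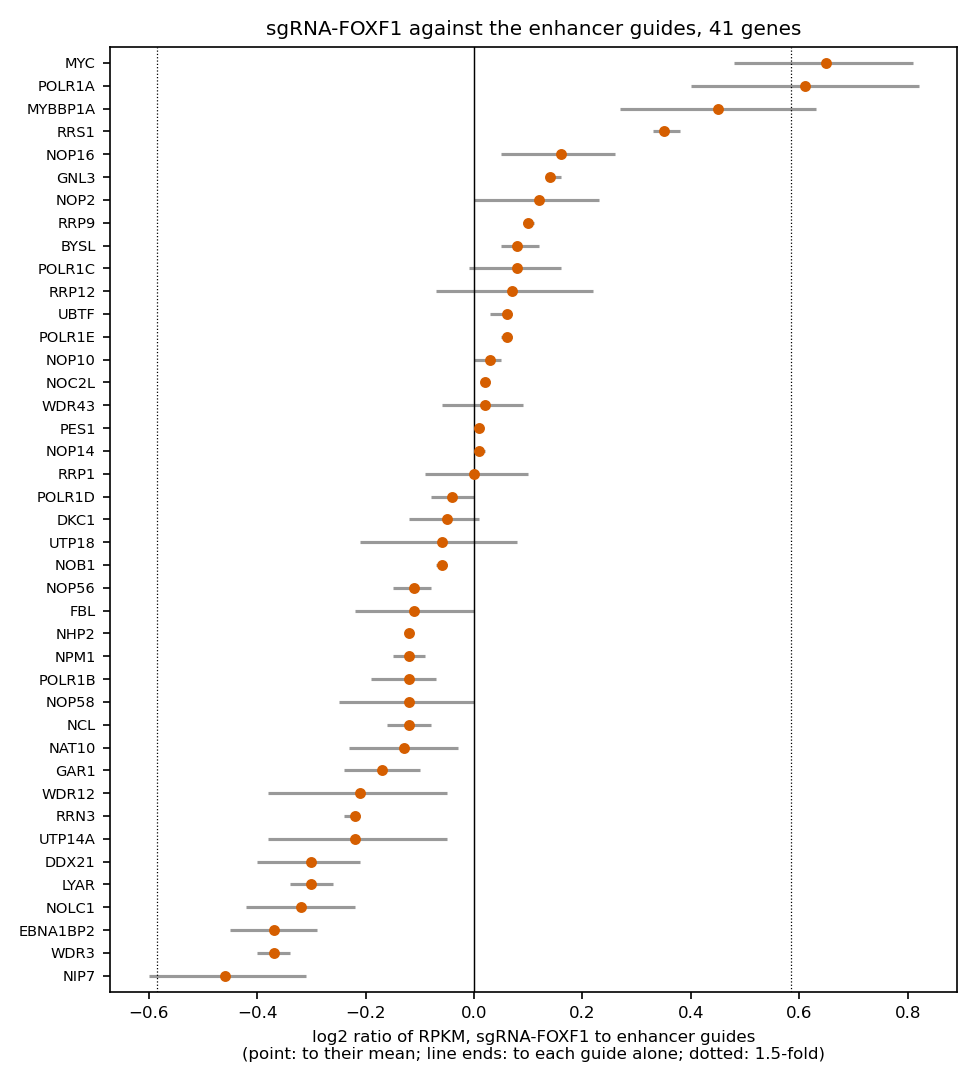
Log2 ratio of RPKM in sgRNA-FOXF1 to the enhancer guides for the 41 genes, ordered by value (x axis; points, ratio to the mean of the guides; line ends, ratio to each guide alone; dotted lines, 1.5-fold). MYC at 0.65 and POLR1A at 0.61 are the only points outside the dotted lines, and both lines reach inside them.

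This contrast went with base composition and not with length. Across the members Spearman's rho of the ratio with the GC content of the transcript was 0.58, and across all compared genes it was 0.60, whereas with length it was -0.075 and -0.02. MYBBP1A, with 60.6% GC, was 0.45 higher in sgRNA-FOXF1, and DDX21, with 40.0% GC, was -0.30. After correction for length and GC content together, MYBBP1A was at 0.15 and DDX21 at -0.10, while MYC was at 0.69 and POLR1A at 0.45, so that MYC alone of the 2 called genes was still past 1.5-fold.

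Between the enhancer guides themselves 0 members differed by 1.5-fold, where 2.41% of all genes were higher and 2.84% lower in sgRNA.71, 5.25% in all. The log2 ratio of sgRNA.71 to sgRNA.69 ran from -0.42 for POLR1A to 0.33, with a median of -0.02. MYBBP1A was at -0.36 and MYC at -0.33, so the genes that differed most from NT or from sgRNA-FOXF1 were in part those that differed between the guides.

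The wider pathway was described from 181 other genes of ribosome biogenesis and the MYC network, of which 173 were in the table and 139 were compared. With sgRNA.69 8 were higher and 7 lower by 1.5-fold (10.8% against the 18.1% of all genes), with sgRNA.71 12 and 8 (14.4% against 28.8%) and with sgRNA-FOXF1 6 and 11 (12.2% against 24.9%). Their median log2 ratios were 0.16, 0.17 and 0.06. limma called 0 of the 139 for the enhancer guides against NT, with 29 at an unadjusted p under 0.05. Taken over all these lists, the shares were below the background here too, which does not hold for each list.

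By list, 1 of 7 other polymerase I genes was higher with each guide and 0 were lower (14.3% in either direction, against 18.1%, 28.8% and 24.9% of all genes). The higher gene was ZNRD1, a small polymerase I subunit, at 3.1 RPKM in NT and 4.8, 5.2 and 4.8 in the targeted libraries. TAF1C, of the promoter selectivity factor, was at 2.6, 2.3, 2.0 and 3.4. Of 41 other small-subunit genes 0, 2 and 0 were higher and 1, 0 and 3 lower (2.44%, 4.88% and 7.32% in either direction, below those shares of all genes). DDX10, a helicase, was at 5.8, 4.3, 3.9 and 2.7 RPKM, and BMS1, a GTPase of the early particle, at 3.3, 2.1, 2.6 and 1.8, so both were lowest with sgRNA-FOXF1.

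Of 52 other large-subunit genes 2, 3 and 2 were higher and 3, 4 and 4 lower (9.62%, 13.5% and 11.5% in either direction, against 18.1%, 28.8% and 24.9% of all genes). GNL3L, a relative of GNL3, was at 8.4 RPKM in NT, 4.1 in sgRNA.69, 3.2 in sgRNA.71 and 9.2 in sgRNA-FOXF1. Before correction for length it was lower than NT with both enhancer guides and near NT with sgRNA-FOXF1, which exceeded their mean by 1.34 on the log2 scale. Its transcript is long (8684 bases), and its length-corrected log2 ratios to NT were -0.54, -0.79 and 0.68. By these it was past 1.5-fold lower with sgRNA.71 only and past 1.5-fold higher with sgRNA-FOXF1. SDAD1 was at 5.8, 4.1, 3.4 and 3.5 RPKM.

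Of 10 snoRNP assembly genes 1, 2 and 1 were higher and 0, 0 and 1 lower (10%, 20% and 20% in either direction, against 18.1%, 28.8% and 24.9% of all genes). PIH1D1, part of the R2TP complex that loads snoRNPs, was at 8.5, 13.5, 14.0 and 12.9 RPKM, and RUVBL1, its ATPase, at 11.2, 16.5, 16.4 and 15.5, both lowest in NT. Of 21 exosome and RNA cleavage genes 4, 4 and 2 were higher (19%, 19% and 9.52%, against 8.18%, 14% and 11.6% of all genes) and 0, 1 and 1 lower, and after length correction 0, 3 and 0 were higher. The exosome subunits EXOSC5 and EXOSC1 were at 8.2, 13.1, 12.2 and 13.1 RPKM and at 6.5, 10.1, 11.4 and 8.8.

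Of 8 compared genes of the MYC network 0 were higher with any guide and 3, 3 and 2 were lower (37.5%, 37.5% and 25%, against 9.93%, 14.7% and 13.2% of all genes). After length correction, which leaves out MLXIP for want of a length, 1, 1 and 0 of 7 were lower. MLXIP, which dimerizes with the MAX-like protein MLX, was at 6.4 RPKM in NT and 2.4, 1.9 and 3.8 in the targeted libraries. TRRAP, a very large scaffold of histone acetyltransferases that MYC recruits (12675 bases), was at 6.4, 3.2, 2.8 and 3.8, with length-corrected log2 ratios of -0.33, -0.35 and -0.03. The median log2 ratios of the 8 were 0.12, 0.02 and -0.05, so most of the list lay near NT.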

How the data were processed

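Poly(A) RNA of 4 libraries was read as single reads of 65 bp, aligned to hg19 with TopHat2 and counted with HTSeq-count, for both of which the version is not given in the sources used here. From these, the authors converted counts to RPKM with GENCODE annotation, quantile-normalized them and deposited RPKM with 1 decimal and a floor of 1. The deposited table also holds 3 columns of the authors' log2 ratios, which were not used. Depth is unknown, since no counts were used here. Labels and methods name different RNA reagents and library kits, so whether strand was kept is uncertain.

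Log2 ratios were computed without a pseudocount over genes that averaged 2 RPKM or more and called at 1.5-fold. limma 3.58.1 (R 4.3.3) with a mean-variance trend was fitted to 3 groups, with Benjamini-Hochberg adjustment over all compared genes. The p-values measure only the spread between the enhancer guides. Length, GC and positions come from GENCODE v44 lifted to GRCh37, and 99.6% of compared genes had a length. The length curve was a spline with 5 knots. Scripts were tested on simulated data. Every member in the table is named. Of the other genes, those named have the largest mean absolute log2 ratios among the compared genes of their list. Members, lists and roles were chosen with earlier results of these data known. Alternatives were a pseudocount, no filter, a higher filter, a 2-fold rule, centring, length and GC correction, limma without trend, the targeted libraries as 1 group, and each enhancer guide left out.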

Additional observations from a re-analysis of the deposited data

Results flagged for a closer look

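The enhancer guides were on one side of NT and sgRNA-FOXF1 on the other for 3 genes, with small distances. NPM1 had log2 ratios to NT of 0.03, 0.09 and -0.06 in sgRNA.69, sgRNA.71 and sgRNA-FOXF1, NIP7 of 0.21, 0.50 and -0.10, and EBNA1BP2 of 0.22, 0.38 and -0.07. The sgRNA-FOXF1 library differed from the mean of the enhancer guides by -0.12 for NPM1, -0.46 for NIP7 and -0.37 for EBNA1BP2. In the limma fit these differences had adjusted p-values of 0.561, 0.453 and 0.450, so none passed the threshold.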

How the results depend on the processing

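No paired analysis was possible because each guide has 1 library and the groups share fewer than 2 replicate numbers. Among the members, a 2-fold rule left 0 higher and 0 lower with sgRNA.69 and 0 and 1 with sgRNA.71 (POLR1A). It left 0 and 0 with sgRNA-FOXF1, and 0 and 0 in sgRNA-FOXF1 against the enhancer guides. Of all compared genes, 4.65%, 10.2% and 8.16% passed 2-fold in either direction in these libraries, and 1.62% in the last contrast. Length correction gave 0 higher and 1 lower with sgRNA.69, 4 and 1 with sgRNA.71, and 1 and 3 with sgRNA-FOXF1. In sgRNA-FOXF1 against the enhancer guides it gave 1 higher and 0 lower. The shares of all genes in either direction were 14.1%, 25.0%, 20.4% and 9.37% in the same order. Length and GC together, chosen after seeing the data, gave 0 higher and 1 lower with sgRNA.69, 3 and 2 with sgRNA.71, and 2 and 1 with sgRNA-FOXF1. In sgRNA-FOXF1 against the enhancer guides they gave 1 higher and 0 lower. Of all genes 13.6%, 23.1%, 18.9% and 5.13% were past 1.5-fold in either direction in the same order. A pseudocount of 1 left 1 higher in the last contrast, where 5.88% of all genes differed in either direction. With no filter 1 member was 1.5-fold lower in sgRNA.71 than in sgRNA.69, where 4.56% of all genes differed in either direction. That member was TWISTNB, at 1.4 RPKM in sgRNA.71 and 2.1 in sgRNA.69. It is below the level filter and close to the floor, so no result is drawn from it. The median log2 ratio of the members with sgRNA.71 went from 0.09 to -0.01 under length correction.

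The other genes numbered 139, except for 173 with no filter, 92 at a mean of at least 5 RPKM and 138 under either correction. Counts from these settings are thus not out of the same genes, and no share of all genes is set beside them. With sgRNA.69 the number higher was 3 with a pseudocount, 2 after centring, 5 at a mean of at least 5 RPKM, 0 at 2-fold, and 5 under either correction. The number lower was 4 with a pseudocount, 2 at 5 RPKM, 3 at 2-fold, 1 under length correction and 0 with GC added. With sgRNA.71, 0 were higher at 2-fold, and the number lower was 13 with no filter, 3 at 5 RPKM, 4 at 2-fold and 5 under length correction. With sgRNA-FOXF1 the number higher was 3 with a pseudocount, 3 after centring, 0 at 2-fold and 11 under length correction, and the number lower was 3 at 5 RPKM, 1 at 2-fold and 6 under length and GC correction. The cause was not tested.

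limma called 0 members under each alternative, with smallest adjusted p-values from 0.135 to 0.237 for contrasts with NT. With no filter it called 354 of 12033 genes for the enhancer guides against NT and 239 for sgRNA-FOXF1 against them, where 2421 genes at the floor in every library enter the spread. With sgRNA.69 alone MYBBP1A, at -0.53, and UTP14A, at 0.47, were short of the 1.5-fold that the mean of the guides reached. With 1 library per guide, library and guide cannot be told apart.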
